A study of Mus musculus with 4 samples.

Results

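The placental cathepsins of the mouse are 8 cysteine protease genes, Cts3, Cts6, Cts7, Cts8, Ctsj, Ctsm, Ctsq and Ctsr, that lie side by side on chromosome 13. They were taken by gene symbol together with Ctsl and Ctsb, cathepsins that most tissues make, which gave 10 genes of the 27179 in the count files. The 10 genes were picked with their counts in fasted and non-fasted libraries already known, so their values in that contrast are described here without a test. Cysteine cathepsins are proteases of the papain family that cells make as inactive proenzymes, with a propeptide that lies over the active site and is cut off in the acid lysosome. The rodent placental genes arose by duplication of a gene related to Ctsl and are known for expression in trophoblast, the fetal cell lineage of the placenta, and they are not known as liver genes.

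Bulk RNA sequencing had been done on 2 fasted and 2 non-fasted liver libraries, all labelled as male wild type C57BL/6 mice, named C57BL/6J in the protocol. Fasted animals went without food overnight and kept their water, while non-fasted animals ate freely. The labels give no age beyond saying that animals were matched, and no source ties a library to one mouse. The total over genes was 13541405 and 13528015 counts in the fasted libraries, against 36975921 and 36943535 in the non-fasted libraries.

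Some labels disagreed with each other or with the data. The titles give the groups used here, whereas the treatment field reads fasted for all 4 libraries. Xist, which coats the silent X chromosome in female cells, had 2 and 1 counts in the fasted libraries, against 25772 and 26316 in the non-fasted libraries, although all 4 are labelled male. All 14 hepatocyte markers were detected in each library and took 12.1% of counts in both fasted libraries, against 5.10% and 5.06% in the non-fasted libraries. The 11 trophoblast markers summed to 5 and 1 counts in the fasted libraries, with 8 and 10 of them at 0, against 4.05% and 4.08% of all counts in the non-fasted libraries, where only Synb was at 0. The 2 decidua markers had no count in the fasted libraries and took 0.209% and 0.213% in the non-fasted libraries. Both non-fasted libraries carried this RNA, so no contrast could be made without it, and its part in each difference below was not tested. In bulk RNA, fewer cells of a type and less RNA per cell cannot be told apart.

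All 10 members carried the catalytic cysteine of the papain family. In the coding sequences of GENCODE M21 (GRCm38), each of the 10 held 1 match to the active-site stretch. The stretches below are shown because they place the placental genes in 1 protease family with Ctsl and Ctsb. Each has 27 bases of coding sequence, 5′ to 3′, and the capitals mark the codon of the catalytic cysteine.
Cts3: gcatgtaattctTGTtgggctatttct
Ctsm: agatgtaattctTGTtgggctttttct
Cts7: agttgtggtgcaTGTtgggctttttct
Ctsl: cagtgcgggtctTGTtgggcgtttagc
Ctsb: tcctgcggctctTGTtgggcatttggg
Over whole coding sequences, the 28 pairs of placental cathepsins were 68.8% to 89.7% identical, with a median of 72.9%. Cts3 and Ctsm were the closest pair and Cts6 and Ctsr followed at 80.3%. Identity to Ctsl was lower, at 61.9% to 66.6%, and identity to Ctsb was lower still, at 51.1% to 57.2%.

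The regions upstream of the placental genes also shared sequence. RefSeq promoters (GRCm38.p6, 300 bases from 250 before to 50 after the annotated start) were matched for all 8 placental genes, each on the minus strand. The last 130 bases before the start are shown for the closest pair, for Ctsj and Ctsr, which share a word of 14 bases and had many counts, and for Cts8, which holds the same word and had few counts in any library. They are given 5′ to 3′ on the gene's strand, at chr13:61570128-61570257 for Cts3, chr13:61541840-61541969 for Ctsm, chr13:61005926-61006055 for Ctsj, chr13:61164189-61164318 for Ctsr and chr13:61255349-61255478 for Cts8. Capitals mark TTTAAA as well as CCAAT, which were picked after these promoters had been read. They also mark TAATCCAGTCACCA, the longest word that at least 4 of the 8 placental promoters hold.
Cts3: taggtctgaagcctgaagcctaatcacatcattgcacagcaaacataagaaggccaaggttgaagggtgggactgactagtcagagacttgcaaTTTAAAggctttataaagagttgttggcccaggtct
Ctsm: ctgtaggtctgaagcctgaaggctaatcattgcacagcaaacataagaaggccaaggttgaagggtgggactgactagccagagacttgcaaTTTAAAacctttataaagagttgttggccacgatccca
Ctsj: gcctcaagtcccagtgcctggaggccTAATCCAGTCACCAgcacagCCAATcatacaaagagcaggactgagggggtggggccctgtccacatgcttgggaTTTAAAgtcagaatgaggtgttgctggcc
Ctsr: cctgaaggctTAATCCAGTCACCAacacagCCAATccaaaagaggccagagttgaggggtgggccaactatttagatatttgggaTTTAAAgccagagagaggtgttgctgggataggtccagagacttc
Cts8: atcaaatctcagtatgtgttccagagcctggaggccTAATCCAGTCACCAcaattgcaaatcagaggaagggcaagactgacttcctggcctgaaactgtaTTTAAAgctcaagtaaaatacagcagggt
TTTAAA stood in 7 of the 8 placental promoters, against 13.2% of all 32851 mouse promoters of this length. Ctsq was the gene without it. Within the window from 45 to 15 bases before the start, 6 of 8 held it, against 1.85% of all promoters. CCAAT, read on both strands, stood in 7 of 8 placental promoters and in 37.4% of all, and in Cts3 and Ctsm it lay farther upstream than the bases shown. The longest shared word stood in 4 of 32851 promoters on either strand, 0.0122% of all, and these were the promoters of Ctsj, Ctsr, Cts6 and Cts8 on which it had been found. Over whole promoters, the placental pairs were 56.4% to 92.9% identical, with a median of 64.1% and Cts3 and Ctsm again the closest. Identity to the annotated promoter of Ctsl, a rough reference only, was 44.3% to 53.4%, so the least alike placental pairs lay not far above it. GATAA, a word that GATA factors are known to bind, also read on both strands, stood in 1 of 8 placental promoters and in 25.4% of all. Among these matches only the 2 of CCAAT in Cts7, on opposite strands, overlapped each other. A match describes letters in the window and names no binding site.

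The placental cathepsins were abundant in the non-fasted libraries and all but absent from the fasted libraries. Cts3 was the most abundant. It had 0 and 1 counts in the fasted libraries, against 155247 and 155827 in the non-fasted libraries. Ctsj had no count in either fasted library, against 45425 and 45192 in the non-fasted libraries. Ctsm, the closest relative of Cts3, likewise had no count in the fasted libraries, against 30373 and 30539 in the non-fasted libraries. Each of these genes separated the libraries by group without overlap. So did many others, as 67.3% of the 15470 tested genes had a lower share of counts in the fasted libraries without overlap.

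Ctsq, a known marker of the sinusoidal giant cells of the placental labyrinth, had 0 and 2 counts in the fasted libraries, against 15008 and 15196 in the non-fasted libraries. Ctsr had 0 in both fasted libraries, against 9832 and 9860 in the non-fasted libraries. Cts6 had 0 in both fasted libraries, against 2964 and 2999 in the non-fasted libraries. The last pair, Cts7 and Cts8, stood far below the others. Cts7 had 0 in both fasted libraries, against 30 and 27 counts in the non-fasted libraries. Cts8 had 0 in both fasted libraries, against 27 and 26 counts in the non-fasted libraries. Of the 8 genes, 6 were at 0 in both fasted libraries and 6 exceeded 1000 counts in both non-fasted libraries.

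**Figure D1:**
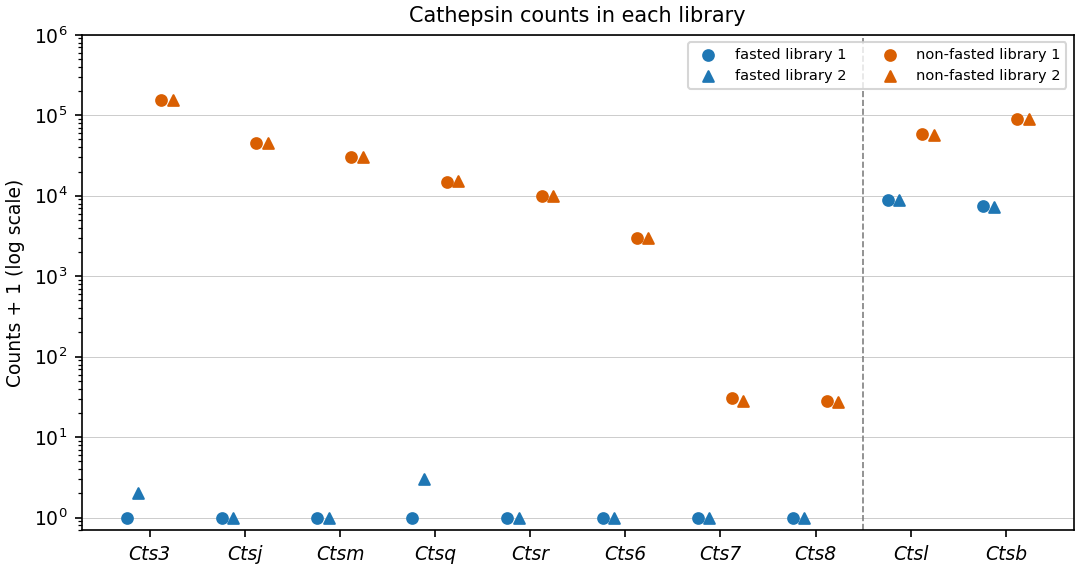
Counts plus 1 of each cathepsin, on a log scale, with 1 point per library (blue fasted, orange non-fasted). The placental genes left of the dashed line sit at 0 to 2 counts in the fasted libraries and at 26 to 155827 counts in the non-fasted libraries, while Ctsl and Ctsb have at least 7247 counts in all 4 libraries.

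As CPM, a count divided by the total of its library and brought to a common scale, the levels in the non-fasted libraries spanned a wide range with little spread between the 2 libraries. Cts3 averaged 4208 ± 13.7 CPM, Ctsj 1226 ± 3.70 CPM and Ctsm 824 ± 3.69 CPM (SD, n = 2 for each). Ctsq averaged 409 ± 3.85 CPM, Ctsr 266 ± 0.701 CPM and Cts6 80.7 ± 0.720 CPM. Cts7 averaged 0.771 ± 0.0569 CPM and Cts8 0.717 ± 0.0187 CPM, near the lower end of detection at this depth. For each of the 8 genes, the 95% counting interval of the ratio between the 2 non-fasted libraries contained 1. The tightest was Cts3, at 0.995 with an interval of 0.988 to 1.002, and Cts7 was loose at 1.11 with an interval of 0.638 to 1.94.

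For genes with no count in the fasted libraries, only a limit can be given. Taking 3 counts over both fasted libraries as the most that a count of 0 allows, CPM was at least 11061-fold lower in the fasted libraries for Ctsj, 7435-fold for Ctsm, 2404-fold for Ctsr and 728-fold for Cts6. For Cts7 and Cts8 the data allowed no more than at least 6.96-fold and at least 6.47-fold lower. Cts3 had 1 fasted count, which put the ratio of non-fasted to fasted CPM at 113916, with a 95% counting interval of 20446 to 4.50e+06. Ctsq had 2 fasted counts and a ratio of 5530, with an interval of 1531 to 45668. All of these fasted counts lay in library 2. Without fasted library 1 the ratios were 56930 for Cts3 and 2764 for Ctsq, and without fasted library 2 no fasted count remained for either. Intervals and limits cover counting error only.

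Together the 8 genes took a sizeable part of the non-fasted RNA. Their share of all counts was 0% in fasted library 1, with a Wilson 95% upper limit of 2.84e-05%, and 2.22e-05% in fasted library 2. It was 0.700% (0.698 to 0.703%) and 0.703% (0.700 to 0.706%) in the non-fasted libraries. Within the 8 genes, Cts3 held 59.96% and 60.01% of the counts in the non-fasted libraries, Ctsj 17.5% and 17.4%, and Ctsm 11.7% and 11.8%. Ctsq held 5.80% and 5.85%, Ctsr 3.798% and 3.797%, and Cts6 1.14% and 1.15%. Cts7 and Cts8 held about 0.01% each, and their counting intervals overlapped in both libraries.

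Ctsl and Ctsb, lysosomal proteases of most cells, were present in every library. Ctsl had 8962 and 8975 counts in the fasted libraries, against 58037 and 57542 in the non-fasted libraries. Ctsb had 7461 and 7247 counts in the fasted libraries, against 90214 and 90582 in the non-fasted libraries. As CPM, Ctsl averaged 663 ± 1.14 in the fasted and 1564 ± 8.50 in the non-fasted libraries, and Ctsb 543 ± 10.8 in the fasted and 2446 ± 8.56 in the non-fasted libraries (SD, n = 2 each). Both were lower in the fasted libraries with no overlap between groups, and Ctsb by the larger ratio.

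The size of that difference depended on how libraries were scaled. After median-of-ratios scaling over all tested genes, Ctsl averaged 17652 ± 65.4 normalized counts in the fasted libraries and 29362 ± 163 in the non-fasted libraries, a log2 fold of -0.73. Ctsb averaged 14474 ± 259 in the fasted and 45930 ± 156 in the non-fasted libraries, a log2 fold of -1.67. Scaled by total counts, the log2 folds were -1.24 for Ctsl and -2.17 for Ctsb, and scaled to the 14 hepatocyte markers they were -2.50 and -3.43. The median log2 fold change of all tested genes moved along, at -0.13, -0.63 and -1.89 under these 3 scalings, so both genes lay below it under each. All 10 members had passed the filter on low counts. All 10 had lower CPM in the fasted libraries without overlap, as did 67.3% of the 15470 tested genes, while edgeR called 45% of these genes lower at an adjusted p under 0.05. The members were chosen on this contrast, so nothing is read from their count.

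Ratios within a library need no scaling between libraries. Ctsb stood at 0.833 and 0.807 counts per count of Ctsl in the fasted libraries (95% counting intervals 0.807 to 0.859 and 0.783 to 0.833), against 1.55 and 1.57 in the non-fasted libraries (1.54 to 1.57 and 1.56 to 1.59). Ctsl thus had more counts than Ctsb in both fasted libraries and fewer in both non-fasted libraries. The placental cathepsins took 0% and 0.0185% of the counts of the 10 members in the fasted libraries, against 63.6% and 63.7% in the non-fasted libraries. The ratio of placental counts to those of Ctsl and Ctsb was 0 and 0.000185 in the fasted libraries and 1.75 in both non-fasted libraries.

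Summed markers of other cells were also lower in the fasted libraries, although 8 of the 13 single markers were higher there. Of all 15470 tested genes, 67.3% had lower CPM in the fasted libraries without overlap. The 8 Kupffer cell and macrophage markers summed to 343 and 334 CPM in the fasted libraries, against 1039 and 1046 CPM in the non-fasted libraries, and none was at 0. Of them, 6, among them the Kupffer cell lectin Clec4f, had higher CPM in the fasted libraries, whereas Cd68 and Csf1r had lower CPM there. Csf1r alone had 61.7 and 58.1 CPM in the fasted libraries, against 675 CPM in both non-fasted libraries. The 5 endothelial markers summed to 161 and 159 CPM in the fasted libraries and to 480 CPM in both non-fasted libraries, and none was at 0. Stab2 and Clec4g, known from liver sinusoids, had higher CPM in the fasted libraries, whereas Lyve1, Pecam1 and Cdh5 had lower CPM there. The part of these cells in the levels of Ctsl and Ctsb was not tested.

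Levels of different genes were compared per length, as CPM per 1000 bases of transcript. In the non-fasted libraries Cts3 led with 2912 and 2925, followed by Ctsj with 865 and 861, Ctsl with 796 and 790, and Ctsb with 514 and 517. Then came Ctsm with 431 and 434, Ctsq with 295 and 298, Ctsr with 188 and 189, and Cts6 with 59.1 and 59.9. Cts7 had 0.534 and 0.481, and Cts8 0.291 and 0.281. The 2 non-fasted libraries did not overlap between any neighbours in this order. In the fasted libraries Ctsl had 336 and 337 and Ctsb 116 and 113.

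**Figure D2:**
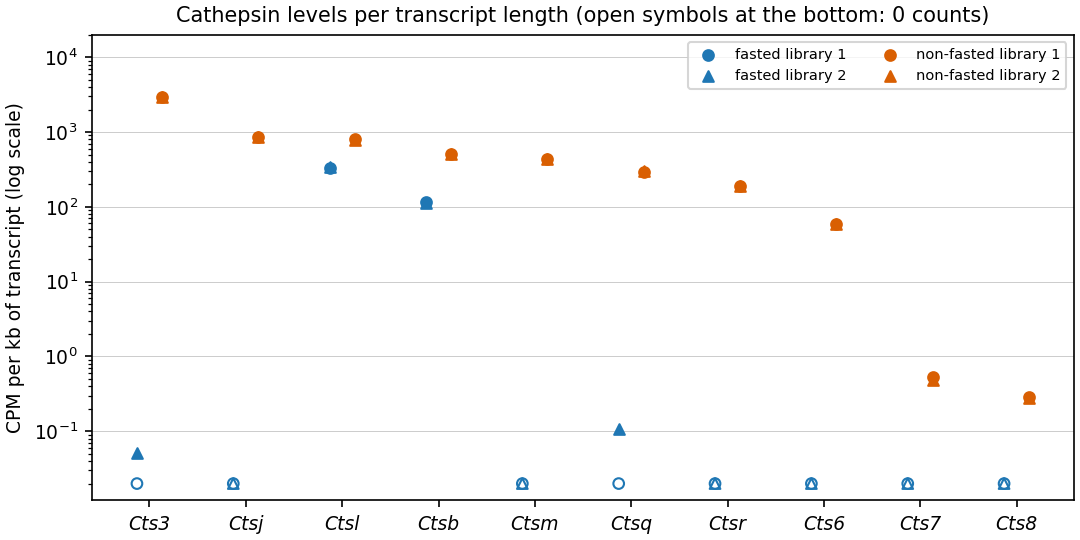
CPM per 1000 bases of transcript, on a log scale, for each cathepsin in each library (blue fasted, orange non-fasted), ordered by the non-fasted level. Cts3 exceeds Ctsl and Ctsb in the non-fasted libraries, and open symbols at the lower edge stand for libraries with 0 counts.

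The order of the middle genes turned on the length used, because the annotated transcripts differ in their untranslated parts. Ctsb has a transcript of 4743 bases but a coding length of 1017 bases, and Ctsj has 1421 and 1002 bases. Per transcript length, Ctsj had 1.09 times the level of Ctsl (95% counting interval 1.08 to 1.10). Per coding length Ctsb came second with 2399 and 2411 CPM per 1000 bases, then Ctsl with 1566 and 1554, then Ctsj with 1226 and 1221. Cts3 stayed first under both, at 4215 and 4235 per coding length. Cts7 had 1.77 times the level of Cts8 per transcript length (1.199 to 2.63), and 1.08 times per coding length, with an interval of 0.731 to 1.60 that contained 1.

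Some members share sequence with other genes, and the sources used here do not give the treatment of reads that match several genes. Of the 50-base windows of the Cts8 transcript, 52.4% also occurred in another gene, mostly Gm49398. The shares were 25.6% for Ctsm, mostly Gm49352, 15.4% for Ctsb, with Fdft1, and 12.9% for Cts3, mostly Ctsm. Cts6, Cts7, Ctsj, Ctsq, Ctsr and Ctsl shared none. The split of counts between Cts3 and Ctsm and the counts of Cts8 and Ctsb, with the Ctsb to Ctsl ratio, are therefore less certain than the others.

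The counts were uneven along the gene cluster. In the RefSeq gene order of chromosome 13, 14 annotated genes lie from Ctsj to Cts3, of which 9 had a row in the count files, namely the 8 placental cathepsins and the pseudogene Cts8-ps. Cts8-ps had no count in the fasted libraries, against 9 and 14 counts in the non-fasted libraries. Cts8 and Cts7, its nearest counted neighbours on either side, were the placental genes with the fewest counts, so the lowest stretch lay inside the cluster and Cts3 and Ctsj, the most abundant, at its ends. Beyond Cts3, the gene Gm20599 had 0 counts in the fasted libraries and 6 and 3 in the non-fasted libraries. The other genes of the window, the pseudogenes Gm18064, Gm5664, Cts7-ps, Ctsm-ps2, Gm7756 and Gm7622, the long noncoding RNAs Gm40976 and Gm40975, and Gm21933, were not analysed here. Ctsl lies farther along the same chromosome, with 78 annotated genes between it and Cts3, and Ctsb lies on chromosome 14.

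On the Ctsj side lie genes that code for proteins like a cathepsin propeptide without its protease. Tpbpa, known from the spongiotrophoblast layer of the placenta, had 3 and 0 counts in the fasted libraries, against 764320 and 770857 in the non-fasted libraries. Next in order, Ctla2a had 36 and 35 counts in the fasted libraries, against 347876 and 352662 in the non-fasted libraries. Tpbpb had 2 counts in each fasted library, against 508651 and 513722 in the non-fasted libraries. Ctla2b had 67 and 54 counts in the fasted libraries, against 11965 and 11967 in the non-fasted libraries. All 4 had lower CPM in the fasted libraries without overlap, as did 67.3% of the 15470 tested genes. Farther out, and named after their values were seen, 4930486L24Rik had 1 and 0 counts in the fasted libraries and 16065 and 16406 in the non-fasted libraries, while the cathepsin-like genes BC051665 and Ctsll3 had at most 2 counts in any library. Dapk1, the next gene that was counted, had 1169 and 1113 counts in the fasted libraries and 4581 and 4349 in the non-fasted libraries.

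**Figure D3:**
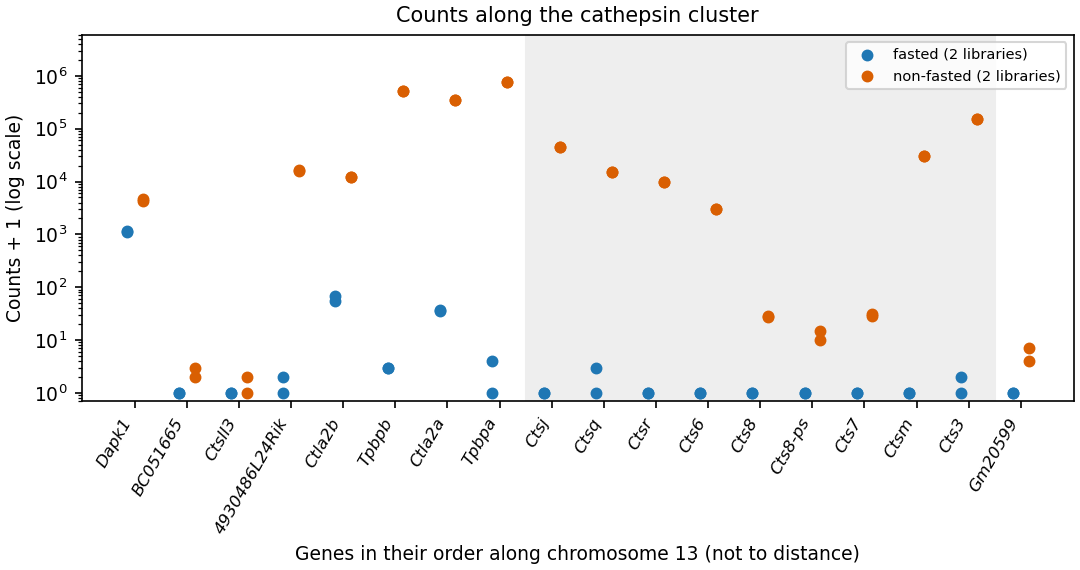
Counts plus 1, on a log scale, of the counted genes in their order along chromosome 13, with both libraries of each group (blue fasted, orange non-fasted) and the cathepsin cluster shaded. High non-fasted counts run from 4930486L24Rik to Cts6 and return at Ctsm and Cts3, with Cts8, Cts8-ps and Cts7 at 30 counts or fewer between them.

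The genes whose levels ran closest to the leading members were found by the Euclidean distance of log2(CPM + 0.5) over the 4 libraries. For Cts3 they were Prl8a6, a prolactin family gene, at 0.31, the pregnancy-specific glycoprotein gene Psg27 at 0.34 and Ceacam14 at 0.50. Prl8a6 had 1 and 0 counts in the fasted libraries, against 164655 and 166563 in the non-fasted libraries. For Ctsb the nearest were the nuclear RNA Neat1 at 0.21, Psap, which codes for the precursor of the lysosomal saposins, at 0.26, and Creg1 at 0.33. For Ctsl they were farther off, with P4hb at 0.79 and H2-K1 and Calr at 0.83. These distances are descriptions over 4 libraries that share their groups.

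The genes around the cathepsins were read from the fit over all genes, in a list of 33 genes in 5 groups. Of the 33 genes, 30 passed the filter on low counts, some of them through the non-fasted libraries alone. Of these, 11 were higher and 15 lower in the fasted libraries at an adjusted p under 0.05 (edgeR quasi-likelihood test, Benjamini-Hochberg), and 4 were not called. Over all tested genes, 37.2% were higher, 45% lower and 82.2% changed either way. The median log2 fold change was -0.29 over the list, against -0.13 over all genes. With total-count scaling 6 of the 30 were higher and 20 lower, beside 23% and 62.7% of all tested genes. With the hepatocyte markers 3 were higher and 25 lower, beside 4.71% and 90% of all tested genes, so under that scaling a gene called lower says little about its group.

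The 8 other cysteine cathepsins had 6 members higher, 1 lower and 1 not called, with a median log2 fold change of 0.69. With total-count scaling 3 were higher and 2 lower, and with the hepatocyte markers 1 was higher and 5 were lower. Over all tested genes, 37.2% were higher and 45% lower with median-of-ratios scaling. These shares were 23% and 62.7% with total-count scaling, and 4.71% and 90% with the hepatocyte markers. Ctsk, the collagen-cutting cathepsin of osteoclasts, was the 1 lower with median-of-ratios scaling. It had 3 and 8 counts in the fasted libraries, against 42050 and 42367 in the non-fasted libraries, a log2 fold change of -10.94 (adjusted p = 8.2e-14, edgeR). Few fasted counts limit that value. Ctsk also passed the filter on low counts through the non-fasted libraries alone, so its call and p-value only describe this contrast. The ratio of non-fasted to fasted CPM was 2810 with a counting interval of 1571 to 5630, and the log2 fold change was -10.37 without fasted replicate 1 and -11.78 without fasted replicate 2. Per 1000 bases of transcript, Ctsk reached 752 and 758 CPM in the non-fasted libraries, below Ctsl and above Ctsb, though it lay below both per coding length. Ctsh, a lysosomal aminopeptidase, had 3880 and 3863 counts in the fasted libraries, against 3326 and 3245 in the deeper non-fasted libraries. It was higher in the fasted libraries by 2.19 ± 0.03 log2 units (adjusted p = 1.2e-11, edgeR), and by 0.43 under hepatocyte-marker scaling. Ctsh was the member of this group that stayed higher under all 3 scalings.

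All 5 genes of the group of aspartic cathepsins, serine cathepsins and legumain were lower in the fasted libraries under each of the 3 scalings, with a median of -1.84, beside 45%, 62.7% and 90% of all tested genes lower with median-of-ratios, total-count and hepatocyte-marker scaling. Legumain (Lgmn), the lysosomal protease that processes other cathepsins, had 781 and 761 counts in the fasted libraries, against 13768 and 13901 in the non-fasted libraries. Its log2 fold change was -2.21 ± 0.04 (SE, adjusted p = 4.5e-11, edgeR). Ctsd, the main aspartic protease of the lysosome and the most abundant of the group, had 4927 and 5175 counts in the fasted libraries, against 26373 and 26293 in the non-fasted libraries, or -0.43 ± 0.02 in log2 (adjusted p = 1.8e-08, edgeR). Ctsg, a protease of neutrophil granules, had no count in the fasted libraries, against 46 and 35 counts in the non-fasted libraries, so its CPM was at least 9.89-fold lower in the fasted libraries (adjusted p = 4.7e-04, edgeR). Ctsa and Ctse were the other 2 lower genes. Ctse had 7 and 3 counts in the fasted libraries, against 65 and 75 in the non-fasted libraries. Ctsg and Ctse passed the filter on low counts through the non-fasted libraries alone, so their calls only describe this contrast.

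The few tested inhibitors differed in direction. Of 9 cystatins, stefins and kininogens, 6 were tested, and both kininogens were higher while all 4 tested cystatins and stefins were lower in the fasted libraries, under each of the 3 scalings. Among all tested genes, 37.2%, 23% and 4.71% were higher with median-of-ratios, total-count and hepatocyte-marker scaling, and 45%, 62.7% and 90% were lower. Kng1 codes for a plasma protein made by hepatocytes that holds cystatin domains. It had 24225 and 24295 counts in the fasted libraries, against 26152 and 25881 in the non-fasted libraries, and was higher by 1.85 ± 0.01 log2 units (SE, adjusted p = 5.0e-14, edgeR), or by 0.09 under hepatocyte-marker scaling. Cst6, a secreted cystatin that inhibits cathepsin L and legumain, had no count in the fasted libraries, against 222 and 238 in the non-fasted libraries. Its CPM was at least 56.2-fold lower in the fasted libraries (adjusted p = 3.0e-06, edgeR). Cst7, an inhibitor made in immune cells, had 1 and 0 counts in the fasted libraries, against 28 and 30 in the non-fasted libraries, a ratio of non-fasted to fasted CPM of 21.2 with a counting interval of 3.66 to 853 (adjusted p = 0.00111, edgeR). It was 10.6 without fasted replicate 2, and without fasted replicate 1 no fasted count remained. Cst3 and Cstb were the other lower genes, and Stfa1, Stfa2 and Stfa3 had at most 3 counts in any library and were not tested. Cst6 and Cst7 passed the filter on low counts through the non-fasted libraries alone, so their calls only describe this contrast.

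All 4 propeptide-like genes of the list, which are the Tpbp and Ctla2 genes given above, were lower in the fasted libraries under each of the 3 scalings, with a median of -13.64. Of all tested genes, 45%, 62.7% and 90% were lower with median-of-ratios, total-count and hepatocyte-marker scaling. Ctla2a is known to inhibit cathepsin L. In Tpbpa the ratio of non-fasted to fasted CPM was 187395, with a counting interval of 64123 to 908697 (adjusted p = 1.3e-15, edgeR). It was 93744 without fasted replicate 2, and no fasted count remained without fasted replicate 1. In Tpbpb the ratio was 93599, with a counting interval of 36556 to 343524 (adjusted p = 3.9e-15, edgeR). None of the 4 coding sequences, of 336 to 411 bases, held the active-site stretch. The group summed to 108 and 91 counts in the fasted libraries, against 4.42% and 4.46% of all counts in the non-fasted libraries. Tpbpa is also 1 of the 11 trophoblast markers, and the part of trophoblast RNA in these differences was not tested. Tpbpa and Tpbpb passed the filter on low counts through the non-fasted libraries alone, so their p-values only describe this contrast.

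The 7 genes of the sorting group are genes of the mannose 6-phosphate route, which carries cathepsins to the lysosome, with Sort1 and Tfeb added. The group showed no common direction. Of the 7 genes, 3 were higher, 1 was lower and 3 were not called, with a median of 0.07, beside 37.2% higher and 45% lower of all tested genes. With total-count scaling 1 was higher and 5 lower, and with the hepatocyte markers all 7 were lower, beside the 62.7% and 90% of all tested genes lower under these scalings. Igf2r, the large mannose 6-phosphate receptor, had 637 and 701 counts in the fasted libraries, against 6094 and 6006 in the non-fasted libraries. It was lower by each scaling, with a log2 fold change of -1.22 ± 0.04 (SE, adjusted p = 9.4e-09, edgeR). Sort1, the sorting receptor sortilin, had 400 and 424 counts in the fasted libraries, against 708 and 667 in the non-fasted libraries. It was higher in the fasted libraries by 1.21 ± 0.06 log2 units (adjusted p = 1.1e-07, edgeR), and turned to -0.55 under hepatocyte-marker scaling. M6pr, the smaller mannose 6-phosphate receptor, gave 0.07 ± 0.04 and was not called (adjusted p = 0.156, edgeR).

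**Figure D4:**
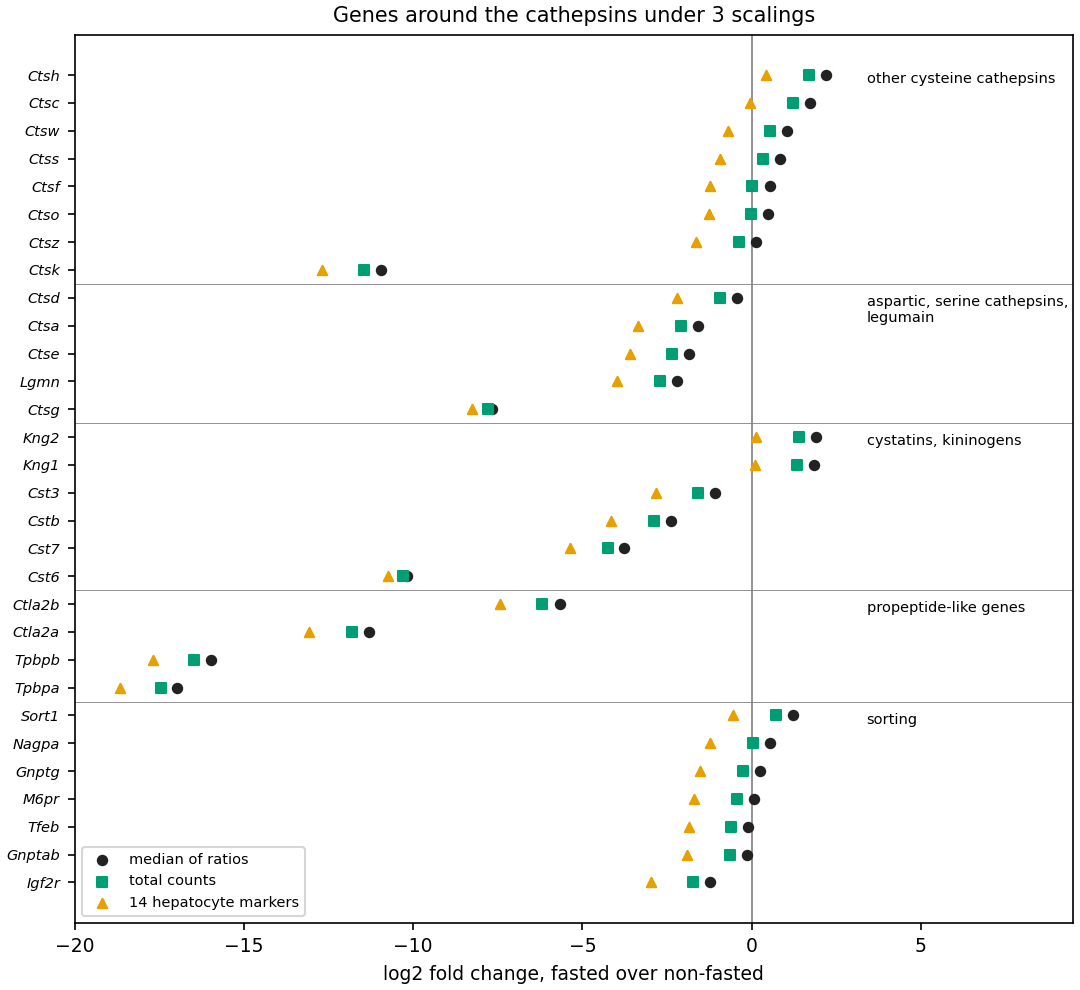
Fold changes in log2 (fasted over non-fasted) for the 30 tested genes in 5 groups under 3 scalings (circles median of ratios, squares total counts, triangles 14 hepatocyte markers). Tpbpa, Tpbpb, Ctla2a, Ctsk and Cst6 lie below -10 under each. Most sorting genes and other cysteine cathepsins change side with the scaling, except Ctsh, Ctsk, Igf2r, Gnptab and Tfeb. Points of Ctsg and Cst6, at 0 counts in both fasted libraries, depend on the prior count of the fit.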

How the data were processed

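Total RNA of 4 libraries was sequenced in bulk. The authors deposited raw counts per gene by Entrez identifier, with no normalization. Tools listed in the submitters' processing notes are Trimmomatic, STAR, featureCounts, FastQC, MultiQC and DESeq2 1.32.0, with GRCm39 (mm39). The other versions, the strand used in counting and how reads with several matches were counted were not given in the sources used here. Of 27179 identifiers, 1904 had no name. Groups follow the sample titles.

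Genes passing filterByExpr at its defaults were scaled by median of ratios over the tested genes and tested with edgeR 4.0.16 in R 4.3.3. The test was quasi-likelihood and two-sided, with Benjamini-Hochberg adjustment over 15470 genes, a threshold of 0.05 and no minimum fold. A run of this fit on simulated counts changed only a small part of the genes. It therefore does not cover data in which most genes are called and scaling moves the folds. SE are from fold change and F, and are too small where a group has few counts, so counting intervals are given there. Alternatives were TMM, total-count and hepatocyte-marker scaling, thinning to equal totals, filters on low counts, DESeq2 1.42.0, an exactly computed deviance, a replicate block and leaving out each library. Wilson or exact binomial intervals at 95% came from scipy 1.17.1, and figures from matplotlib 3.10.9 in Python 3.11.15. CPM and transcript lengths (GENCODE M21) gave levels. Coordinates are given only for RefSeq promoters of GRCm38.p6, since the count files use another build. Sequences were aligned with Biopython 1.88. Proteins were not used here.

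Members and lists were chosen with earlier results of these data known. Ctsk, Ctse, Ctsg, Cst6, Cst7, Tpbpa and Tpbpb, with few or no fasted counts, passed the filter on low counts through the non-fasted libraries alone. Their calls and p-values are therefore description only. Named are all members, in each pathway group the 2 genes with the largest change past the threshold and the most abundant one, others of the list with at least 10 counts where a result needs them, the locus from Ctsj to Cts3 with 3 genes on each side, and the 3 genes closest to Cts3, Ctsl and Ctsb. Since no source ties libraries to separate mice, the p-values cover no more than the spread among these 4 libraries, possibly a technical one. Between the 2 libraries of a group that spread was close to counting noise but above it. For the fasted libraries, the squared deviation per gene was 1.11 times that of counting error over 12319 genes (chi-square test, p = 1.7e-18). For the non-fasted libraries it was 1.13 times over 16086 genes (chi-square test, p = 2.4e-30).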

Additional observations from a re-analysis of the deposited data

How the results depend on the processing

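Scaling moved the counts of calls most. With total counts 3551 genes were higher and 9694 lower in the fasted libraries, and in the pathway list 6 were higher. With hepatocyte-marker scaling 728 were higher and 13928 lower, and in the list 3 and 25. The scalings moved the median of all genes by -0.50 and -1.76 in log2. The log2 fold of Ctsl became -1.24 and -2.50, and that of Ctsb -2.17 and -3.43. Leaving out 1 library at a time gave -0.75 to -0.70 for Ctsl and -1.68 to -1.62 for Ctsb. It gave 5192 to 5311 genes higher, 6066 to 6288 lower, and 11 and 15 in the list. The non-fasted share of all counts was 0.700% to 0.703% without 1 library, 0.699% after thinning and 0.854% without the 20 most abundant genes. The share of the 10 members was 63.6% to 63.7% without 1 library, 63.5% after thinning and 63.9% per coding length.

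Single genes changed sign under hepatocyte-marker scaling. The log2 fold changes were -0.032 for Ctsc, -1.23 for Ctsf, -1.27 for Ctso, -0.92 for Ctss and -0.69 for Ctsw. They were -1.64 for Ctsz, -1.70 for M6pr, -1.51 for Gnptg, -1.22 for Nagpa and -0.55 for Sort1. Of these, Ctsc and Ctsw were not called under that scaling (adjusted p = 0.495 and 0.147, edgeR). With total counts Ctso gave -0.012, Ctsz -0.38, M6pr -0.44 and Gnptg -0.26, and Ctso was not called (adjusted p = 0.787, edgeR). Tfeb, not called, ran from -0.28 to 0.14 when 1 library was left out, the highest without fasted replicate 1. Of 386 values over 30 genes, 364 kept direction and call, 3 lost the call, 4 gained it and 15 changed sign, called or not.

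The replicate block gave 5743 genes higher and 6929 lower and changed no call in the list. The numbers pair nothing by design, and same-numbered deviations correlated at -0.0053. DESeq2 called 5053 higher and 6355 lower, and the exactly computed deviance 5782 and 7011. Cts7 and Cts8 had at most 30 counts, so depth limits what their folds can show.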
